A study of Mus musculus with 10 samples.

Results

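Solute carriers are membrane proteins that move ions, sugars, amino acids and other small molecules, and they are grouped into numbered families by sequence. The members described here were the genes of the deposited expression table whose symbol is Slc, a number, one of the letters a, b, c or o and a further number, and which reached at least 1 FPKM (fragments scaled to gene length and to the counted reads of a library) in at least 5 of the 10 libraries. Families Slc25, Slc30 and Slc39 and 6 single genes (Slc2a1, Slc35a2, Slc7a2, Slc7a11, Slc11a1 and Slc40a1) were left out. The table held 361 genes of this symbol pattern, of which 282 were allowed and 121 passed the level, out of 35275 genes in all and 11414 that passed the same level. Symbols, levels and these exclusions chose the members. The level was applied without regard to treatment, so how high they were is a description and not a result. The list itself was drawn up with earlier results of these data known, so it was not blind to treatment.

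The glands came from lactating mice of the inbred strain BALB/c. LPS glands received 50 µL of lipopolysaccharide, the endotoxin of Gram-negative bacteria (from E. coli 055: B5), at 0.4 mg/mL through the teat canal on day 3 of lactation. PBS glands, the controls, received sterile phosphate-buffered saline by the same route, and the side of the 4th pair given LPS or PBS alternated. All glands were taken 12 h after injection, and whole-tissue RNA libraries were sequenced for 5 LPS and 5 PBS glands. The labels state n = 9 without saying which animals the 10 libraries came from, so p-values here speak of the spread among these 10 glands, which may be in part technical.

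Milk is made by alveolar epithelial cells, which take amino acids, glucose, phosphate, choline and vitamins from blood through carriers of the basolateral membrane and move ions into milk through carriers of the apical membrane. The sodium gradient kept by the sodium-potassium ATPase drives many of these carriers. Further carriers sit inside the cell, where those of the Golgi bring in nucleotide sugars for the glycosylation of milk proteins and oligosaccharides. All of this is background and not a result of these data.

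Most solute carriers did not differ detectably between LPS and PBS glands at 12 h. Of the 121 members, 4 rose in LPS glands (2.63% of all tested genes rose) and 1 fell (0.605% of all tested genes fell), by limma with a Benjamini-Hochberg adjusted p below 0.05 over all genes tested. This is the main fit, and calls below refer to it unless another setting or tool is named. The 4 rises were the amino acid carrier Slc6a14, the peptide carrier Slc15a2, the Golgi carrier Slc35a3 and the sugar carrier Slc5a9, and the fall was the sodium-proton exchanger Slc9a4. The members called in either direction made up 4.13% of the list, against 3.23% of all tested genes, so the share lay near the background. The split moved with the scaling: with milk protein genes left out of the scaling total, limma called 2 members higher and 6 lower. Over all tested genes these counts were 132 and 239. Without the 3 libraries highest in lymphocyte markers it called 0 in either direction, with 6 above 0 and 8 below at an unadjusted p under 0.05. All-gene calls also fell there, to 28 higher and 7 lower. The main fit is unpaired. Taking equal replicate numbers as pairs, which the labels do not state, limma called 8 members higher and 3 lower, with 962 and 267 over all tested genes. The median log2 change of the members was 0.04, beside 0.05 over all tested genes, and the median of its absolute size was 0.14, beside 0.12. An absolute log2 change of at least 0.5 was seen for 7 members and of at least 1 for 1 member. Log2 changes of limma are LPS minus PBS on log2(FPKM + 1), which understates the change of low genes. Those of edgeR and DESeq2 come from models of read counts, and those of the authors' table are likewise not on this scale. The submitters name DESeq2 too, so a DESeq2 call here is not separate from the authors' listing of the same gene.

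**Figure D1:**
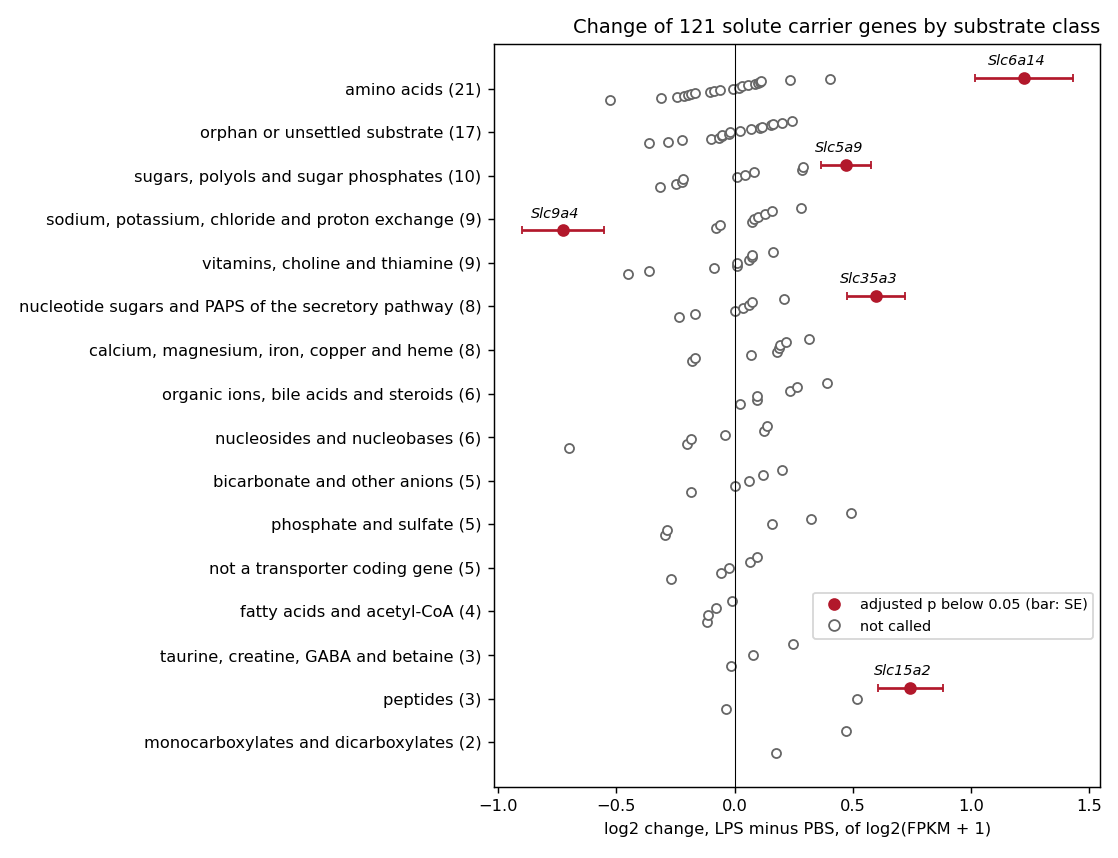
Log2 change (LPS minus PBS, of log2(FPKM + 1)) of the 121 members on the x axis by substrate class, with the number of members in brackets. Filled points with SE bars are the 5 members with an adjusted p below 0.05, and open points are the others. Slc6a14 lies farthest from 0 at 1.22, and 114 members lie within 0.5 of 0.

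Depth was 15734303 to 18869545 counted reads per library, so that 1 read of a gene of 1 kb was worth 0.053 to 0.0636 FPKM. Precision differed with level and between glands: the median coefficient of variation of the members was 17.0% within LPS and 17.4% within PBS glands, and the median half-width of the 95% interval of a log2 change was 0.28. In whole tissue, fewer cells of a type and less RNA per cell cannot be told apart. Other transcripts moved with the treatment: the 10 neutrophil markers summed to 7371 to 14190 FPKM in LPS glands and to 713.4 to 1871 FPKM in PBS glands, with 5 of 7 tested higher and S100a8 and S100a9 making up most of the sum. The 7 milk protein genes summed to 180000 to 258000 FPKM in LPS glands and to 220200 to 299400 FPKM in PBS glands, which overlapped, with 0 of 7 called. The 8 luminal epithelial markers summed to 1077 to 1306 FPKM in LPS glands and to 1005 to 1121 FPKM in PBS glands, with 1 of 8 called higher. Lymphocyte markers were uneven within groups, at 0.951 to 65.3 FPKM in LPS glands and 3.29 to 148.9 FPKM in PBS glands, highest in PBS replicates 2 and 4 and LPS replicate 3. The part of these transcripts in the results was not tested.

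Amino acid carriers were the largest class, with 21 members, of which 1 rose, 0 fell and 20 were not called in the main limma fit. Slc6a14 encodes a sodium- and chloride-coupled carrier of neutral and cationic amino acids in epithelia (ENSMUSG00000031089, chromosome X, 21714896 to 21742355, plus strand, build mm10, GENCODE annotation). It was at 4.24, 8.70, 4.46, 5.07 and 8.07 FPKM in LPS replicates 1 to 5 and at 2.29, 2.11, 1.10, 1.63 and 2.91 FPKM in PBS replicates 1 to 5. LPS replicates 2 and 5 were highest, and every LPS gland lay above every PBS gland. The means were 6.11 ± 2.11 FPKM in LPS glands and 2.01 ± 0.683 FPKM in PBS glands (SD, n = 5 each), a 3.05-fold difference and a log2 change of 1.22 ± 0.21 (SE, limma adjusted p = 0.00929). The call held whichever single library was left out (highest adjusted p = 0.0312). It ended without the 3 libraries highest in lymphocyte markers, a fit chosen after the values were seen, at a log2 change of 1.28 (limma adjusted p = 0.0774).

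RefSeq promoter windows, from 250 bases before to 50 bases after the start of transcription on build GRCm38.p6, were at hand for 90 of the 121 members and for 3 of the 5 called ones. These are shown because they are the start regions of members that rose in LPS glands. Slc6a14 lies at chrX:21714650-21714949 on the plus strand, Slc15a2 at chr16:36784913-36785212 on the minus strand and Slc35a3 at chr3:116712231-116712530 on the minus strand. Each is written 5′ to 3′ along its gene, and capitals mark the letters TGAGTCA, a site type of the transcription factor AP-1.
Slc6a14: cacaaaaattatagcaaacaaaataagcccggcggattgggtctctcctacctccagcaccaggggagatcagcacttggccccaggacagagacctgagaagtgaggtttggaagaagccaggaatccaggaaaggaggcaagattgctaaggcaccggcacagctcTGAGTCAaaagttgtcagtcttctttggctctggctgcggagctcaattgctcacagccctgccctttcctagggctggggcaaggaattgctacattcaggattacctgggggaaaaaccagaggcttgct
Slc15a2: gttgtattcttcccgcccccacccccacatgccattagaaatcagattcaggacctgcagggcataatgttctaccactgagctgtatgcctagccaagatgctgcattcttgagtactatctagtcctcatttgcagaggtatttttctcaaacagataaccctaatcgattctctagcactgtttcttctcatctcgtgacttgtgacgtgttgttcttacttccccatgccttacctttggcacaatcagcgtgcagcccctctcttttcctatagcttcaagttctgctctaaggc
Slc35a3: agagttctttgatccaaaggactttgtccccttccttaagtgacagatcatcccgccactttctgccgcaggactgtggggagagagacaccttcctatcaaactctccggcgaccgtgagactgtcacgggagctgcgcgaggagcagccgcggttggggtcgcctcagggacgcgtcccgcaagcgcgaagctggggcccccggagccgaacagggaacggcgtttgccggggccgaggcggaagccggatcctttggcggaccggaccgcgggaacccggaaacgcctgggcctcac

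The windows were searched on both strands for TGAGTCA (reverse complement TGACTCA), for TTCNNNGAA, the core of STAT sites, and for TGATGCAA, an amino acid response element. TGAGTCA was found in the Slc6a14 window, beginning at base 169, and in neither of the other 2. It was present in 4 of 124 windows of members (3.23%) and in 5.2% of all 32851 windows. TTCNNNGAA was in 7 windows of members (5.65%) and in 8.3% of all. TGATGCAA was in 4 windows of members (3.23%), which belong to 3 members, and in 0.895% of all. The 124 windows come from 90 members, so some members are counted more than once. None of the 3 printed windows held TTCNNNGAA or TGATGCAA. These are matches of letters and say nothing of binding.

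The most abundant member was also an amino acid gene. Slc3a2 encodes the heavy chain that carries the light chains of the Slc7 family to the cell surface, and it was at 152.7, 186.5, 120.1, 203.7 and 129.7 FPKM in LPS glands and at 125.6, 120.2, 190.9, 141.8 and 156.7 FPKM in PBS glands. The groups overlapped almost completely, with a log2 change of 0.10 (95% interval -0.26 to 0.46, limma adjusted p = 0.842). Slc38a2, a sodium-coupled carrier of small neutral amino acids, averaged 29.3 ± 4.67 FPKM in LPS glands and 33.5 ± 4.09 FPKM in PBS glands (limma adjusted p = 0.483). Slc1a4, an exchanger of alanine, serine, cysteine and threonine, was at 3.13, 2.40, 2.92, 4.44 and 2.13 FPKM in LPS glands and at 4.06, 4.88, 5.12, 5.42 and 3.98 FPKM in PBS glands. LPS replicate 4 alone reached into the PBS range, and the log2 change of -0.53 ± 0.15 did not pass (limma adjusted p = 0.0753). Without that library the log2 change was -0.64 and passed (limma adjusted p = 0.0219), and edgeR on recovered reads also called it lower (adjusted p = 0.0381). Limma called it lower with equal replicate numbers taken as pairs (adjusted p = 0.0138), a pairing the labels do not state. Slc1a4 is listed as lower in the authors' deposited table, with a log2 fold change of -0.60 and an adjusted p of 0.0056091.

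Peptide carriers had 3 members, of which 1 rose. Slc15a2 encodes a proton-coupled carrier of dipeptides and tripeptides that is known from mammary epithelium (ENSMUSG00000022899, chromosome 16, 36750177 to 36784962, minus strand, build mm10). It was at 31.1, 38.4, 30.4, 38.1 and 28.4 FPKM in LPS glands and at 17.0, 18.1, 24.5, 15.4 and 23.2 FPKM in PBS glands. The lowest LPS gland lay above the highest PBS gland. The means were 33.3 ± 4.65 FPKM in LPS glands and 19.6 ± 3.99 FPKM in PBS glands (SD, n = 5 each), 1.70-fold, and the log2 change was 0.74 ± 0.14 (limma adjusted p = 0.0153). The call held whichever single library was left out (highest adjusted p = 0.0468) and ended without the 3 libraries highest in lymphocyte markers (log2 change 0.64, limma adjusted p = 0.122).

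The other peptide members are carriers of endolysosomes that also take histidine. Slc15a4 averaged 6.08 ± 0.650 FPKM in LPS glands and 6.34 ± 1.46 FPKM in PBS glands (limma adjusted p = 0.939). Slc15a3 was at 1.02 to 2.84 FPKM in LPS glands and at 0.449 to 1.997 FPKM in PBS glands (limma adjusted p = 0.238). Limma called Slc15a3 higher with equal replicate numbers taken as pairs, a pairing the labels do not state. All 5 LPS glands but fewer than 3 PBS glands had at least 1 FPKM of Slc15a3, so it passed the level mainly through its LPS values.

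**Figure D2:**
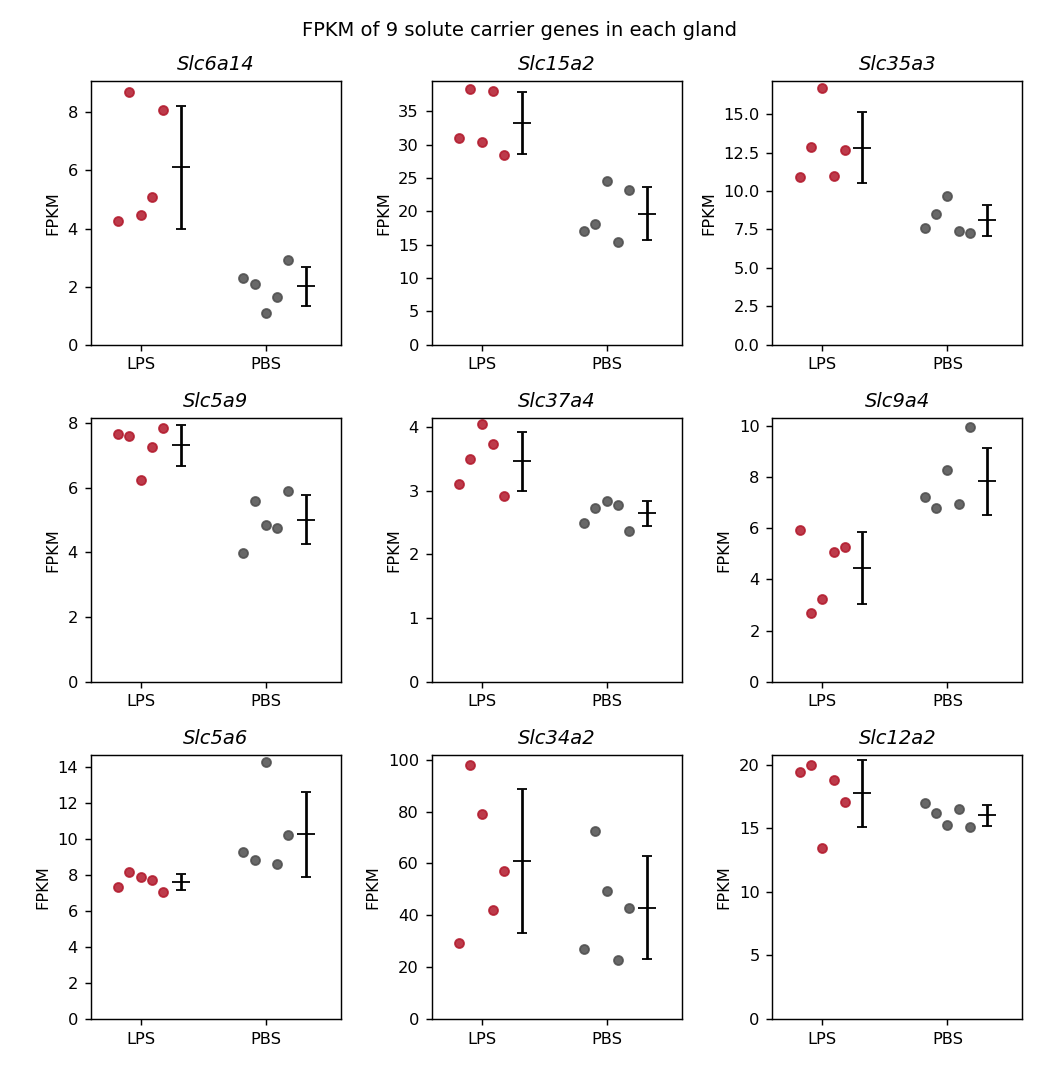
FPKM of 9 members in each gland (y axes, from 0), LPS at the left and PBS at the right of each panel, in replicate order within a group, with mean and SD as a bar beside the points. In the first 5 panels every LPS gland lies above every PBS gland, in those of Slc9a4 and Slc5a6 every LPS gland lies below, and in those of Slc34a2 and Slc12a2 the groups overlap.

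The class of nucleotide sugar carriers, with the carrier of PAPS (the sulfate donor), had 8 members, of which 1 rose and 7 were not called. Slc35a3 encodes a Golgi carrier of UDP-N-acetylglucosamine, a sugar donor for the branches of glycans (ENSMUSG00000027957, chromosome 3, 116669470 to 116712831, minus strand, build mm10). It was at 10.9, 12.9, 16.7, 11.0 and 12.7 FPKM in LPS glands and at 7.58, 8.49, 9.68, 7.40 and 7.28 FPKM in PBS glands, without overlap. The means were 12.8 ± 2.34 FPKM in LPS glands and 8.09 ± 1.01 FPKM in PBS glands (SD, n = 5 each), 1.59-fold, and the log2 change was 0.60 ± 0.12 (limma adjusted p = 0.0197). The call ended without LPS replicate 2, PBS replicate 1, PBS replicate 4 or PBS replicate 5 (highest adjusted p = 0.0625). It also ended without the 3 libraries highest in lymphocyte markers (limma adjusted p = 0.134), with milk protein genes left out of the scaling total (0.0667) and without a filter on level (0.0592), at log2 changes of 0.49, 0.43 and 0.60. Both edgeR and DESeq2 on recovered reads kept the call (adjusted p = 0.0105 and 8.2e-05). Slc35b1, of the endoplasmic reticulum, averaged 36.0 ± 4.18 FPKM in LPS glands and 35.1 ± 3.64 FPKM in PBS glands. Slc35b2, the PAPS carrier of the Golgi, averaged 28.2 ± 4.95 FPKM in LPS glands and 28.1 ± 3.88 FPKM in PBS glands (limma adjusted p = 0.926 for Slc35b1 and 0.998 for Slc35b2).

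The class of sugar, polyol and sugar phosphate carriers had 10 members, of which 1 rose. Slc5a9 encodes a sodium-coupled carrier of mannose and related sugars (ENSMUSG00000028544, chromosome 4, 111875375 to 111902918, minus strand, build mm10). It was at 7.66, 7.59, 6.24, 7.25 and 7.84 FPKM in LPS glands and at 4.00, 5.59, 4.84, 4.75 and 5.91 FPKM in PBS glands, a narrow gap between LPS replicate 3 and PBS replicate 5. The means were 7.32 ± 0.638 FPKM in LPS glands and 5.02 ± 0.753 FPKM in PBS glands (SD, n = 5 each), and the log2 change was 0.47 ± 0.11 (limma adjusted p = 0.032). The call ended without LPS replicate 2, 4 or 5 or PBS replicate 1, 3 or 4 (highest adjusted p = 0.0932), and it was not made by edgeR on recovered reads (adjusted p = 0.0557). It also ended without the 3 libraries highest in lymphocyte markers (limma adjusted p = 0.109), with median-of-ratios or quantile scaling (0.0738 and 0.0731), with milk protein genes left out of the scaling total (0.16) and without a filter on level (0.0741). The log2 change was 0.55 without those 3 libraries and 0.48 by edgeR, 0.42 and 0.41 under those 2 scalings, 0.32 with milk protein genes left out and 0.47 without the filter. DESeq2 on the same recovered reads kept the call (log2 change 0.48, adjusted p = 0.0161).

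Slc37a4, the glucose-6-phosphate carrier of the endoplasmic reticulum, was at 3.10, 3.49, 4.05, 3.73 and 2.92 FPKM in LPS glands and at 2.496, 2.73, 2.84, 2.78 and 2.37 FPKM in PBS glands. The groups did not overlap, but the log2 change of 0.29 ± 0.10 did not pass (limma adjusted p = 0.157). The sodium-glucose carrier Slc5a1 averaged 30.6 ± 6.79 FPKM in LPS glands and 24.5 ± 3.10 FPKM in PBS glands (limma adjusted p = 0.385). Slc17a5, which exports sialic acid from lysosomes, averaged 23.2 ± 3.88 FPKM in LPS glands and 27.1 ± 3.09 FPKM in PBS glands (limma adjusted p = 0.388).

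The class of sodium, potassium, chloride and proton exchange had 9 members, of which 1 fell. Slc9a4 encodes a sodium-proton exchanger known from basolateral membranes of stomach and kidney (ENSMUSG00000026065, chromosome 1, 40580081 to 40630725, plus strand, build mm10). It was at 5.95, 2.70, 3.25, 5.08 and 5.26 FPKM in LPS glands and at 7.21, 6.81, 8.26, 6.93 and 9.94 FPKM in PBS glands. LPS replicates 2 and 3 were lowest, and the groups did not overlap. The means were 4.45 ± 1.40 FPKM in LPS glands and 7.83 ± 1.31 FPKM in PBS glands (SD, n = 5 each), and the log2 change was -0.73 ± 0.17 (limma adjusted p = 0.0436). This call was close to the threshold: it was kept without LPS replicate 1 and lost without each of the other 9 libraries (adjusted p 0.0508 to 0.104). It was also lost without the 3 libraries highest in lymphocyte markers (limma adjusted p = 0.156), by edgeR on recovered reads (0.0586), without a filter on level (0.118) and with median-of-ratios or quantile scaling (0.0673 and 0.0694). The log2 change in these 5 fits was no smaller in size, at -0.75, -0.87, -0.73, -0.77 and -0.77, though the edgeR value of -0.87 is from counts and on another scale. DESeq2 on recovered reads (log2 change -0.87, adjusted p = 0.00751) and limma with milk protein genes left out of the scaling total (-0.88, adjusted p = 0.0237) kept the call. Exons of Slc9a4 share 207 and 764 bases with 2 genes of the opposite strand in the GENCODE annotation, and whether counting kept the strand is not given in the sources used here.

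Slc12a2 encodes NKCC1, the sodium-potassium-chloride cotransporter of secretory epithelia, and was at 19.4, 20, 13.4, 18.8 and 17.1 FPKM in LPS glands and at 17.0, 16.2, 15.2, 16.5 and 15.1 FPKM in PBS glands. LPS glands spread on both sides of the PBS glands, which varied little (coefficient of variation 5.03%). The log2 change was 0.13 (95% interval -0.10 to 0.36, limma adjusted p = 0.615). Slc9a8, an intracellular sodium-proton exchanger, averaged 8.57 ± 1.16 FPKM in LPS glands and 8.07 ± 1.30 FPKM in PBS glands (limma adjusted p = 0.821). The 4 potassium-chloride and sodium-potassium-chloride cotransporters of the Slc12 family that passed the level had log2 changes between -0.08 and 0.16, with a 5th, Slc12a9 of unsettled substrate, at 0.11.

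Phosphate and sulfate carriers had 5 members, none of which was called in the main limma fit. Slc34a2 encodes a sodium-phosphate cotransporter of the apical membrane of mammary epithelium. It was at 29.3, 97.97, 79.2, 41.96 and 57.0 FPKM in LPS glands and at 26.9, 72.5, 49.4, 22.8 and 43.0 FPKM in PBS glands. Both groups spread over more than a 3-fold range and overlapped, and the coefficient of variation within LPS glands, 45.4%, was the highest of the 121 members. In the fit without pairing, the log2 change was 0.49 ± 0.34 (95% interval -0.25 to 1.24, limma adjusted p = 0.538). The labels do not say that equal replicate numbers are 1 animal. With equal numbers taken as pairs, limma called Slc34a2 higher at the same log2 change (adjusted p = 0.0181). Slc20a1, a sodium-phosphate cotransporter of most cells, averaged 61.1 ± 15.3 FPKM in LPS glands and 48.4 ± 10.2 FPKM in PBS glands (limma adjusted p = 0.376). Slc26a2, a sulfate carrier, was at 3.12 to 4.97 FPKM in LPS glands and at 4.68 to 5.72 FPKM in PBS glands (log2 change -0.28, limma adjusted p = 0.202), and it is listed as lower in the authors' deposited table with an adjusted p of 0.02164. DESeq2 on recovered reads called Slc26a2 lower (adjusted p = 0.0103), which is not separate from that listing. Limma called it lower with milk protein genes left out of the scaling total (adjusted p = 0.0403).

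The class of vitamin, choline and thiamine carriers had 9 members, none of which was called in the main limma fit. Slc5a6, the sodium-coupled carrier of biotin and pantothenate, was at 7.31, 8.15, 7.91, 7.75 and 7.04 FPKM in LPS glands and at 9.27, 8.85, 14.3, 8.64 and 10.2 FPKM in PBS glands. Every LPS gland lay below every PBS gland, and the log2 change of -0.36 ± 0.12 did not pass (limma adjusted p = 0.145). It was called lower by DESeq2 on recovered reads (log2 change -0.50, adjusted p = 0.0171) and by limma with milk protein genes left out of the scaling total (-0.53, adjusted p = 0.0299), and not by edgeR (-0.50, adjusted p = 0.0608). Exons of Slc5a6 share 396 bases with Atraid on the opposite strand. Slc44a4, of thiamine pyrophosphate and choline, was at 0.341 to 1.01 FPKM in LPS glands and at 0.832 to 1.67 FPKM in PBS glands (limma adjusted p = 0.119). The authors' deposited table lists both as lower, with adjusted p of 0.028823 for Slc5a6 and 0.030577 for Slc44a4. DESeq2 on recovered reads called Slc44a4 lower (adjusted p = 0.0259). The submitters name the same tool, so the DESeq2 calls of Slc5a6 and Slc44a4 are not separate from theirs. Slc44a4 passed the level mainly through its PBS values. The riboflavin carrier Slc52a2 averaged 25.5 ± 1.86 FPKM in LPS glands and 27.5 ± 5.88 FPKM in PBS glands (limma adjusted p = 0.825). The choline carrier Slc44a1 averaged 19.97 ± 2.38 FPKM in LPS glands and 18.8 ± 1.70 FPKM in PBS glands (limma adjusted p = 0.794).

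Nucleoside and nucleobase carriers had 6 members, none of which was called in the main limma fit. Slc28a3, a concentrative nucleoside carrier of broad substrate range, was the second most abundant member, at 71.5, 99.2, 118.3, 111.4 and 103.7 FPKM in LPS glands and 78.5, 138.7, 144.4, 99.9 and 116.5 FPKM in PBS glands. Replicate 1 was the lowest of each group, and the groups overlapped (log2 change -0.18, 95% interval -0.56 to 0.20, limma adjusted p = 0.686). Slc17a9, which loads ATP into vesicles, was at 1.17, 0.848, 1.47, 0.854 and 0.934 FPKM in LPS glands and at 1.29, 4.30, 1.85, 1.90 and 2.99 FPKM in PBS glands. PBS replicates 2 and 5 were highest, and PBS replicate 1 lay within the LPS range. The log2 change of -0.70 ± 0.20 did not pass (limma adjusted p = 0.0842), and edgeR on recovered reads called it lower (adjusted p = 0.0292). So did DESeq2 (adjusted p = 0.00131) and limma with quantile normalization (0.0475) or with milk protein genes left out of the scaling total (0.0391). Limma did not call it with median-of-ratios scaling (0.0521), without a filter on level (0.205) or with any single library left out (lowest adjusted p = 0.0567). Slc17a9 passed the level mainly through its PBS values. The authors' deposited table lists it as lower, with a log2 fold change of -0.90, and the DESeq2 call is not separate from that listing. Slc29a3, an equilibrative carrier of lysosomes, averaged 10.4 ± 1.02 FPKM in LPS glands and 10.8 ± 1.35 FPKM in PBS glands (limma adjusted p = 0.904).

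**Figure D3:**
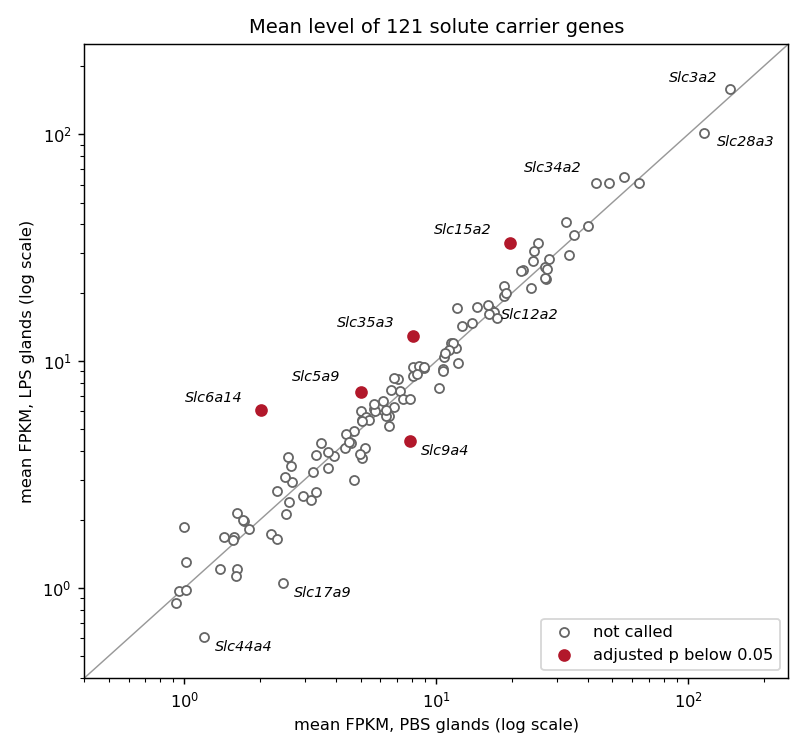
Mean FPKM of each of the 121 members in LPS glands (y axis) against PBS glands (x axis), both on log scales, with the line of equal levels. Slc3a2 and Slc28a3 are the highest, the 4 called rises lie above the line, and Slc9a4 lies below it with Slc17a9 and Slc44a4, which were not called.

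The class of calcium, magnesium, iron, copper and heme carriers had 8 members, none of which was called in the main limma fit (lowest adjusted p = 0.252, Slc48a1). Slc31a2, a member of the copper transporter family, was at 84.7, 60.6, 62.8, 56.3 and 61.1 FPKM in LPS glands and at 68.4, 60.6, 45.3, 50.4 and 54.5 FPKM in PBS glands (limma adjusted p = 0.454). LPS replicate 1 stood above the other LPS glands, and the rest of both groups overlapped. Slc48a1, a heme carrier of endolysosomes, averaged 41.1 ± 6.70 FPKM in LPS glands and 32.8 ± 5.21 FPKM in PBS glands. Limma called it higher with equal replicate numbers taken as pairs (adjusted p = 0.0274), a pairing the labels do not state.

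Monocarboxylate carriers had 2 members. Slc16a1, a proton-coupled carrier of lactate and pyruvate, averaged 27.5 ± 4.82 FPKM in LPS glands and 24.2 ± 3.32 FPKM in PBS glands (limma adjusted p = 0.577). Slc5a8, a sodium-coupled one, was at 15.2, 20.9, 12.8, 13.0 and 23.5 FPKM in LPS glands and at 15.7, 12.3, 7.72, 9.99 and 14.5 FPKM in PBS glands, which overlapped (log2 change 0.47, limma adjusted p = 0.261). Limma called Slc5a8 higher with equal replicate numbers taken as pairs (adjusted p = 0.0323), a pairing the labels do not state.

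Fatty acid and acetyl-CoA carriers had 4 members, with log2 changes between -0.11 and -0.01 and a lowest limma adjusted p of 0.719. The fatty acid transport proteins Slc27a1 and Slc27a4 were at similar levels: Slc27a1 averaged 16.5 ± 4.73 FPKM in LPS glands and 16.9 ± 2.15 FPKM in PBS glands. Slc27a4 averaged 16.1 ± 1.07 FPKM in LPS glands and 16.2 ± 0.992 FPKM in PBS glands, with a 95% interval of the log2 change from -0.18 to 0.16.

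Bicarbonate and other anion carriers had 5 members and a lowest limma adjusted p of 0.391. Slc4a2, a chloride-bicarbonate exchanger, averaged 9.43 ± 0.936 FPKM in LPS glands and 8.11 ± 1.16 FPKM in PBS glands. Slc5a5, the sodium-iodide symporter that brings iodide into milk, averaged 6.80 ± 1.47 FPKM in LPS glands and 7.89 ± 1.85 FPKM in PBS glands (limma adjusted p = 0.637). The class of taurine, creatine, GABA and betaine carriers had 3 members and a lowest limma adjusted p of 0.305. Its creatine carrier Slc6a8 averaged 17.3 ± 0.647 FPKM in LPS glands and 14.6 ± 2.85 FPKM in PBS glands. Slc16a12, also a creatine carrier, averaged 9.38 ± 0.858 FPKM in LPS glands and 8.93 ± 1.84 FPKM in PBS glands (limma adjusted p = 0.833).

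Carriers of organic ions, bile acids and steroids had 6 members, each with a log2 change above 0 (0.02 to 0.39) and none called by limma. The carnitine carrier Slc22a5 averaged 6.14 ± 0.632 FPKM in LPS glands and 5.66 ± 0.263 FPKM in PBS glands (limma adjusted p = 0.666). The 17 members of orphan or unsettled substrate had log2 changes between -0.36 and 0.24, and none was called by limma. The highest of these, Slc38a10 and Slc35a4, averaged 25.9 ± 2.06 and 21.4 ± 3.00 FPKM in LPS glands and 26.9 ± 2.27 and 18.5 ± 3.11 FPKM in PBS glands.

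The symbol rule also took in 5 genes that do not code for a transporter, and none of these was called by limma. Slc9a3r1 and Slc9a3r2 encode the scaffold proteins NHERF1 and NHERF2, which bind carriers at the apical membrane. Slc9a3r1 averaged 61.1 ± 6.44 FPKM in LPS glands and 64.1 ± 10.6 FPKM in PBS glands (limma adjusted p = 0.886). Slc9a3r2 averaged 39.4 ± 6.40 FPKM in LPS glands and 40.1 ± 6.51 FPKM in PBS glands (limma adjusted p = 0.962). The others were Slc4a1ap, Slc7a6os and the pseudogene Slc2a4rg-ps.

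Summed by class, the ranges of LPS and PBS glands overlapped in all classes but one. Amino acid carriers summed to 280.3 ± 41.9 FPKM in LPS glands and 269.8 ± 26.2 FPKM in PBS glands, and they took 17.2% of the FPKM of the members. Nucleotide sugar carriers summed to 147.4 ± 10.5 FPKM in LPS glands and 145.9 ± 9.32 FPKM in PBS glands. Peptide carriers summed to 35.4 to 47.8 FPKM in LPS glands and 22.4 to 31.5 FPKM in PBS glands, without overlap, and most of this sum was Slc15a2. The sums were not tested, since a single gene can carry a class.

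**Figure D4:**
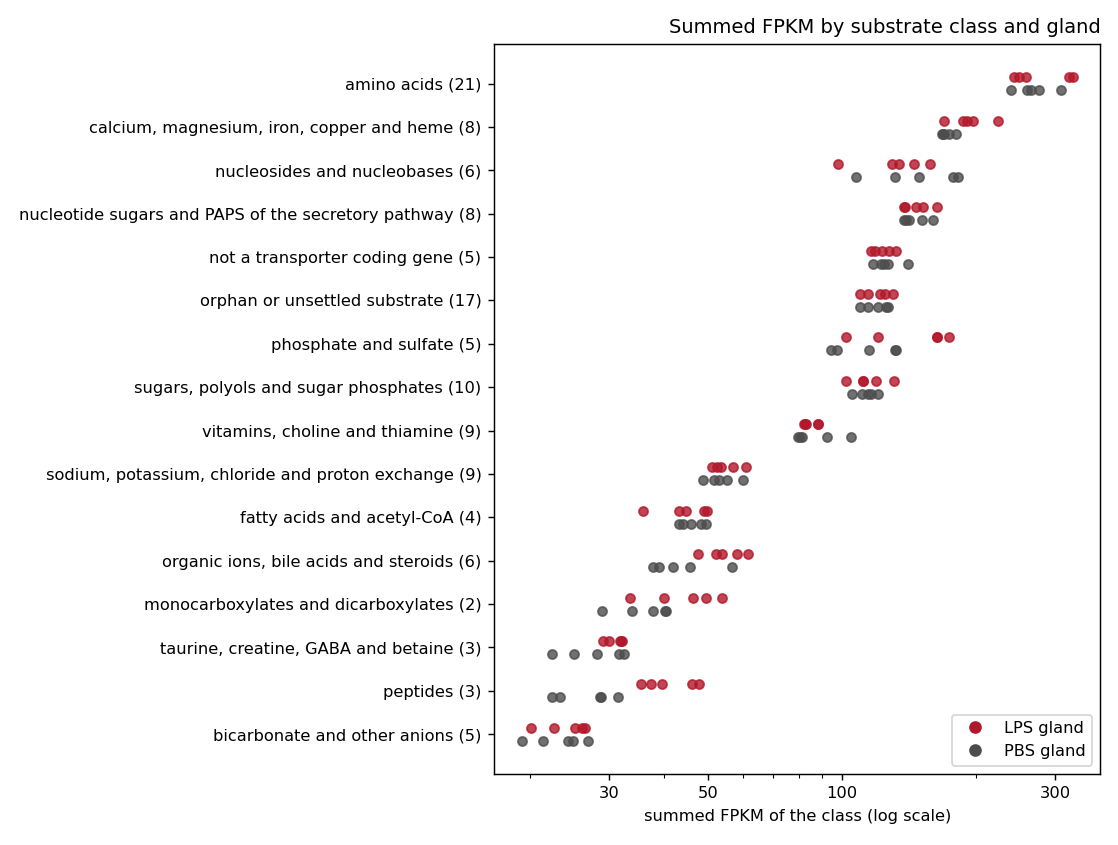
Summed FPKM of the members of each substrate class (x axis, log scale) in each LPS gland (upper points) and each PBS gland (lower points), with the number of members in brackets. The 2 groups overlap in every class except the peptide carriers, at 35.4 to 47.8 FPKM in LPS glands and 22.4 to 31.5 FPKM in PBS glands.

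Over all members, 5 had every LPS gland above every PBS gland (3.53% of all tested genes) and 2 had every LPS gland below (1.22% of all tested genes). At an unadjusted p below 0.05 there were 22 members, 10 with a log2 change above 0 and 12 below, which is 18.2% of the members and 16.5% of all tested genes. For 114 of the 116 members not called, the 95% interval of the log2 change lay within 1 of 0.

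The 10 most abundant members took 39.7% of the FPKM of all 121, and mean FPKM over the 10 libraries ran from 0.893 to 153.0 with a median of 6.21. Just inside the level were Slc44a4, Slc9a7, a sodium-proton exchanger of the Golgi, and Slc16a4, a monocarboxylate family gene. Slc9a7 was at 0.352 to 1.31 FPKM in LPS glands and 0.518 to 1.27 FPKM in PBS glands, and Slc16a4 at 0.644 to 1.21 FPKM in LPS glands and 0.741 to 1.62 FPKM in PBS glands. Just outside were Slc2a12, Slc7a10 and Slc22a3, with means of 1.13, 0.824 and 1.20 FPKM in LPS glands and of 0.951, 0.938 and 0.830 FPKM in PBS glands.

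The authors' deposited table of changed genes lists 13 of the 282 allowed solute carriers, of which 10 are members (8.26% of the members). Of these 10, 4 are listed as higher and 6 as lower in LPS glands. That table lists 908 of all 35275 genes, at any level, 608 as higher and 300 as lower. The listed share of the 11414 genes that passed the level is not given here. The 8.26% therefore has no like background, and no excess can be read from it. It includes all 5 members called here. For them it gives log2 fold changes of 1.13 for Slc6a14, 0.62 for Slc15a2, 0.57 for Slc35a3, 0.45 for Slc5a9 and -0.68 for Slc9a4. Of the 161 allowed genes below the level, 3 are in that table, each with a positive log2 fold change. Slc2a6, a glucose transporter family gene of inflammatory macrophages, was at 0.743, 5.27, 3.80, 1.83 and 2.61 FPKM in LPS glands and at 0.306, 0.547, 0.567, 0.375 and 0.323 FPKM in PBS glands, with 38 to 259 reads per LPS library and 14 to 26 per PBS library in the authors' deposited table. Slc16a3, a lactate carrier of glycolytic cells, was at 0.624, 2.94, 0.733, 0.882 and 1.76 FPKM in LPS glands and at 0.408, 0.424, 0.273, 0.191 and 0.418 FPKM in PBS glands. Slc26a9, a chloride channel and carrier of epithelia, stayed at 0.106 to 0.414 FPKM in LPS glands and 0.0125 to 0.125 FPKM in PBS glands. These 3 were not in the list tested here, since fewer than 5 libraries reached 1 FPKM.

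Partners of the carriers came from 2 further lists. Of 17 tested channels, pumps, aquaporins and carbonic anhydrases, 3 rose (2.63% of all tested genes rose) and 0 fell (0.605% of all tested genes fell). Atp1b1, a beta subunit of the sodium-potassium ATPase, averaged 29.7 ± 11.9 FPKM in LPS glands and 6.80 ± 2.82 FPKM in PBS glands (log2 change 1.98 ± 0.26, limma adjusted p = 0.00276). Its relative Atp1b3 averaged 55.0 ± 4.59 FPKM in LPS glands and 42.0 ± 5.11 FPKM in PBS glands (log2 change 0.38, limma adjusted p = 0.0487), close to the threshold. Car13, a cytosolic carbonic anhydrase, averaged 20.1 ± 4.53 FPKM in LPS glands and 11.7 ± 1.51 FPKM in PBS glands (log2 change 0.72, limma adjusted p = 0.0226). How these 3 calls moved under the alternatives is not given here. Of 12 tested regulators and chaperones of carriers, such as the kinases Stk39 and Oxsr1 that act on NKCC1, 0 were called by limma in either direction. Bsg, the chaperone of lactate carriers, averaged 132.3 ± 7.79 FPKM in LPS glands and 114.2 ± 6.39 FPKM in PBS glands without overlap (limma adjusted p = 0.181), and Atf4, a regulator of amino acid carrier genes, averaged 129.5 ± 16.4 FPKM in LPS glands and 127.5 ± 9.26 FPKM in PBS glands.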

How the data were processed

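RNA of 5 LPS and 5 PBS mammary glands was sequenced. The submitters' processing notes name mouse build mm10 and the tools DESeq2 (with the version 2), HTSeq 0.6.1 and STAR 2.5; settings, annotation and strand handling are not given in the sources used here. The authors deposited FPKM for all genes and, for 908 genes with their adjusted p-value below 0.05, raw read counts, a normalized signal (counts divided by 1 size factor per library) and log2 fold changes, per the file headers. Genes reaching 1 FPKM in 5 or more libraries were tested with limma 3.58.1 (R 4.3.3, mean-variance trend, two-sided, group as the only term) on log2(FPKM + 1), and p-values were adjusted over all 11414 genes by the Benjamini-Hochberg method. Counted reads per library and gene lengths gave back whole reads for 23059 genes (tolerance 0.002 reads), on which edgeR 4.0.16 and DESeq2 1.42.0 were run as alternatives. Gene symbols were looked up by Ensembl ID (34490 of 35275 matched, 3 more in the authors' table), and coordinates are those of GENCODE M21. The limma procedure was tested on simulated data.

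The members, substrate classes and lists were chosen with earlier results of these data known. Named genes were 3 markers (Slc34a2, Slc12a2, Slc9a4), members that were called, listed by the authors or not overlapping, the 10 of highest mean FPKM, the 2 highest of each class, those next to the level threshold, and the called genes of the 2 partner lists (where none, the 2 of highest mean FPKM); Slc15a3, Slc12a9, Slc26a11, Stk39 and Oxsr1 were named after their values were seen. 3 symbols of the rule that the classes did not foresee were assigned afterwards. A gene that this rule selects is not reported here.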

Additional observations from a re-analysis of the deposited data

Results flagged for a closer look

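Among the 44 members that the naming rule selects, 4 of 88 groups of 5 glands held a gland set apart from the others by more than 0.71 of the group's range, where chance gives about 1 in 20. Slc31a2 was at 84.7 FPKM in LPS replicate 1 while the rest of the LPS group lay at 56.3 to 62.8 FPKM. Slc44a1 was at 15.8 FPKM in LPS replicate 3 while the rest of that group lay at 20.4 to 21.8 FPKM. Slc35b2 was at 21.2 FPKM in PBS replicate 5 while the rest of the PBS group lay at 28.8 to 30.3 FPKM. Slc5a6 was at 14.3 FPKM in PBS replicate 3 against 8.64 to 10.2 FPKM for the rest of the PBS group, so the mean of its PBS group rests in part on that gland.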

How the results depend on the processing

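Of 960 values of the 44 members that the naming rule selects under 22 alternatives, 906 kept their direction or side of the threshold, 35 lost a call, 19 gained one and 0 called values changed sign; 16 of the 39 uncalled members changed sign without a call under some alternative. Solute carriers called higher numbered 4 and those called lower 1, against 300 and 69 over all tested genes. Without a filter on level they were 2 and 0 (all genes 101 and 25, with more genes tested). With milk protein genes left out of the scaling total they were 2 and 6 (all genes 132 and 239), a scaling under which the all-gene median of the log2 change was -0.10 in place of 0.05. Median-of-ratios scaling gave 265 and 99 genes over all. Quantile normalization gave 2 lower (all genes 233 and 145), edgeR 2 lower (132), and DESeq2 7 lower (all genes 546 and 299). The 2 lower members were Slc17a9 and Slc1a4 under quantile normalization and by edgeR, without Slc9a4. Under median-of-ratios scaling the 1 lower member was Slc1a4, and the 7 by DESeq2 included Slc9a4. The cause was not tested. Leaving out single libraries gave 2 to 4 members higher and 0 to 1 lower, and 121 to 429 and 27 to 88 genes over all, the members higher falling to 2 without LPS replicate 2, PBS replicate 1 or PBS replicate 4. Without the 3 libraries highest in lymphocyte markers, an alternative chosen after seeing the data, limma called 0 members higher and 0 lower (6 and 8 at an unadjusted p below 0.05; edgeR and DESeq2 were not run on these libraries), and 28 and 7 genes over all, with fewer glands to test. The replicate block (equal numbers as pairs) gave 8 members higher and 3 lower and 962 and 267 genes over all, adding Slc34a2 (adjusted p = 0.0181), Slc48a1 (0.0274), Slc5a8 (0.0323) and Slc15a3 as higher and Slc1a4 (0.0138) and Slc26a11 as lower. Equal numbers are not stated to be 1 animal: deviations of equal numbers correlated at 0.099 to 0.494, and 3 of 5 LPS libraries correlated best with their own number. Depth limits values near 1 FPKM most, and log2 changes there are understated.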
